A study of Mus musculus with 6 samples.

Results

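The S100 proteins and annexins described here are 10 calcium-responsive genes: S100a4, S100a6, S100a10, S100a11, S100a13 and S100a16, and Anxa1, Anxa2, Anxa3 and Anxa5. They were taken by gene symbol from the 32285 genes counted, as a set chosen from earlier results on their UMI levels across cell types and groups in these same libraries, so levels across cell types are given as a description. Expression was measured by droplet single-cell RNA sequencing of live tdTomato+ cells sorted from mouse back skin, in which tamoxifen, given on postnatal day (PD) 17 at a dose of 200 µg/g, had activated Cdh5-CreERT2, a Cre recombinase driven by the VE-cadherin gene Cdh5. Each of 6 mice gave 1 library. The WT telogen mice (PD 20, resting hair follicles, n = 2) and WT anagen mice (PD 32, growing follicles, n = 2) were tdTomato;Cdh5-CreERT2;Krt14-H2BGFP animals of strain C57BL/6;CD1. The KO telogen mice (PD 25, n = 2) were Alk1 flox/flox;tdTomato;Cdh5-CreERT2 animals of strain C57BL/6, in which the same Cre removes Alk1, the endothelial receptor for BMP9 and BMP10. Cells that expressed Cdh5 while tamoxifen was active, and their progeny, can carry the label and, in the KO mice, the deletion. The sort also held cells of other kinds. The genotype entry of the KO samples reads wild type, and their group was taken from their titles.

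S100 proteins are small EF-hand calcium sensors that work mostly as dimers by binding other proteins. Annexins are cytosolic proteins that attach to negatively charged phospholipids when calcium rises, and they act in membrane repair, vesicle traffic and the anchoring of actin. The families meet in defined complexes: an S100A10 dimer joins 2 molecules of annexin A2, S100A11 pairs with annexin A1, and the giant scaffold protein AHNAK binds the S100A10-annexin A2 complex. On endothelial cells (ECs) that complex is known as a docking site for plasminogen and its activator.

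The 6 S100 members lay within 3.05 Mb of chromosome 3 (mm10, GENCODE vM21), in or beside the epidermal differentiation region: S100a13 at chr3:90514435-90524581, S100a16 at chr3:90537254-90543151, S100a4 at chr3:90603771-90606045, S100a6 at chr3:90612882-90624181, S100a11 at chr3:93520488-93526287 and S100a10 at chr3:93555080-93564643, all on the plus strand. Anxa5 lay elsewhere on the same chromosome (chr3:36448923-36475894, minus strand). Anxa3 was at chr5:96793339-96845966 (plus), Anxa2 at chr9:69453620-69491795 (plus) and Anxa1 at chr19:20373428-20390944 (minus). Anxa1 overlaps the opposite-strand lincRNA 1500015L24Rik, and Anxa2 overlaps the antisense gene Gm16144, both of which were counted as genes of their own.

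The stretches just before the start sites of 5 members are shown. S100a4 and S100a6 are neighbours whose KO differences had opposite signs in both lymphatic populations and in Cdh5+/Krt19+ cells, and S100a11, Anxa2 and Anxa5 were called lower in the KO in 6, 9 and 10 of 10 populations. They come from the RefSeq promoter table (GRCm38.p6), which matched S100a4, S100a6, S100a11, S100a13, S100a16 (2 starts), Anxa1, Anxa2 and Anxa5. Each line gives the 250 bases before the start, 5′ to 3′ on the gene's strand, and capitals mark matches on either strand to the letters of AP-1, SP1 or TATA given after the sequences, which do not overlap one another here. The stretches of S100a6 and Anxa5 hold none of these. Those of S100a4 are chr3:90603520-90603769 (plus), of S100a6 chr3:90612644-90612893 (plus), of S100a11 chr3:93520246-93520495 (plus), of Anxa2 chr9:69453433-69453682 (plus) and of Anxa5 chr3:36475888-36476137 (minus).
S100a4: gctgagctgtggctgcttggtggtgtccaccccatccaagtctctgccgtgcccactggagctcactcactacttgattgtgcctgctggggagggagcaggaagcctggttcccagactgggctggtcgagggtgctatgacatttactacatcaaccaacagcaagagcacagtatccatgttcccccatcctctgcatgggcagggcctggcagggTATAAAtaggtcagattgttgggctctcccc
S100a6: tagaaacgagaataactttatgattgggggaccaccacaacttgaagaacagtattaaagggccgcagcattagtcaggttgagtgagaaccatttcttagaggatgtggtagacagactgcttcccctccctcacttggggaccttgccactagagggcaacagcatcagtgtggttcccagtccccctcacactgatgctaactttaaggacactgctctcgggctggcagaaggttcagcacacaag
S100a11: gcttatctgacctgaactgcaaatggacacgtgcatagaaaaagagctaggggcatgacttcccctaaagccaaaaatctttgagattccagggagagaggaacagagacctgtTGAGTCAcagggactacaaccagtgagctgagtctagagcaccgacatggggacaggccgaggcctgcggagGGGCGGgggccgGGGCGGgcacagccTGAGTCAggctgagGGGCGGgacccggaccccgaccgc
Anxa2: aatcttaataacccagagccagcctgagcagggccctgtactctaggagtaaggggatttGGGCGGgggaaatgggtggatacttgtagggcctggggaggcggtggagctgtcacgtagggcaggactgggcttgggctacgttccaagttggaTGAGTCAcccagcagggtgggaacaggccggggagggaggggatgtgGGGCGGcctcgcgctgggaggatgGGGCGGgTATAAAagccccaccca
Anxa5: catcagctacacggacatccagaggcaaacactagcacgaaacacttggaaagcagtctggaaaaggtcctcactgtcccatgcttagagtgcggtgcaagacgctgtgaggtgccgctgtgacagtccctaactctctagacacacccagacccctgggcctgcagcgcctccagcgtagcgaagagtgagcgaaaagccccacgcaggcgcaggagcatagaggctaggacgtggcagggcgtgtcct

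Over the whole RefSeq windows, which run a little past each start and were searched on both strands, TATAAA was found in 3 of the 8 members with a window (S100a4, Anxa1 and Anxa2) and in 13.6% of all 32851 promoters. The AP-1 letters TGANTCA were in 3 of 8 (S100a11, S100a16 and Anxa2) against 7.81% of all, and the SP1 letters GGGCGG in the same 3 genes against 35.7%. The single match to the TEAD letters GGAATG was in Anxa1 (14.7% of all promoters), and the single match to the CArG motif, which serum response factor binds, lay in Anxa5 at position 26 after the start (1.63% of all). GGCGCC, bound by SMAD proteins after BMP signals, was in S100a13 alone of the members (11.9% of all), the shorter SMAD letters CAGAC were in 5 of 8 members (49.6% of all), and the NF-kB motif was in 0 of 8 (4.51% of all). These are matches of letters in a window and show no binding.

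The libraries held 10615358 to 43317677 UMIs in 2283 to 6643 barcodes, and the KO libraries were the shallowest. Cells with 200 to 5000 genes and under 10% mitochondrial UMIs numbered 1713 to 5106 a library, which is more for the WT libraries together than the study kept under the same stated limits. Of the 20894 distinct barcodes kept, 47 occurred in more than 1 library. Cells were clustered without the members, and clusters were named from marker genes. The 6 EC populations were Artery, Vein, the capillary populations Cap-Kdr and Cap-Rgcc, lymphatic collecting (Lymph-Col) and lymphatic capillary (Lymph-Cap) ECs. Cdh5+/Krt19+ cells, the non-endothelial population that wraps nerve bundles as perineurium, carried all 12 of their markers. The Schwann-like cluster also carried all 12 perineurial markers beside its own 10, and the pericyte-like cluster carried 9 EC markers, so both names are loose. Levels are given as CPM, a gene's UMIs as a share of all UMIs summed over a population's cells in a library, on the usual CPM scale, and they are 3′ tag counts, so they are compared between populations and not between genes. Such sums do not tell fewer expressing cells from less RNA per cell.

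Across the 15 named populations of the 4 WT libraries, each member had its own leading populations, and no population was highest for more than 3 of them. Among the S100 genes, S100a6, or calcyclin, was highest in the fibroblast-like cluster (5011 ± 1027 CPM, SD, n = 4) and in the Schwann-like cluster (4071 ± 396 CPM). Cdh5+/Krt19+ cells came next with 3451 ± 493 CPM, and from fibroblast-like down to Vein ECs the range of every neighbour in the order overlapped. Vein ECs were at 584 ± 254 CPM and mast-like cells stood apart at 127 ± 44.7 CPM.

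S100a10, the annexin A2 partner also called p11, was highest in Lymph-Cap ECs (2304 ± 55.5 CPM, n = 4), with macrophage-like, DC-like, Cdh5+/Krt19+ (1955 ± 351 CPM) and fibroblast-like cells following in overlapping ranges. A gap separated these 5 from the other populations, which ran from Lymph-Col ECs (1353 ± 59.3 CPM) to pericyte-like cells (511 ± 159 CPM). Anxa2 itself was at 1255 ± 197 CPM in DC-like cells, 1246 ± 74.2 CPM in Lymph-Cap ECs and 1198 ± 99.1 CPM in Cdh5+/Krt19+ cells, ranges that overlapped. Its lowest levels were in Cap-Kdr ECs (461 ± 57.7 CPM), pericyte-like cells (391 ± 61.1 CPM) and mast-like cells (125 ± 75.7 CPM). Over the 15 population means the correlation of S100a10 with Anxa2 was r = 0.778, a description over points that share 4 libraries.

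S100a4, known as metastasin and a binder of non-muscle myosin, was highest in immune populations, with 3568 ± 495 CPM in T-like cells, 2826 ± 265 CPM in DC-like cells and 1903 ± 284 CPM in macrophage-like cells (n = 4 each). The ranges of T-like and DC-like cells were apart from each other and from those below. Within ECs it separated populations sharply, with Artery (569 ± 175 CPM) and Lymph-Col (421 ± 190 CPM) far above Cap-Rgcc (21.3 ± 10.4 CPM), Cap-Kdr (12.7 ± 6.74 CPM) and Vein (8.35 ± 7.93 CPM), the last 3 in overlapping ranges. An EC cluster led by Plscr1 was left unnamed and carried 5 Cap-Rgcc markers and 5 Artery markers. It had more S100a4 than any named EC population, at 1406 and 1541 CPM in the telogen libraries. In the WT telogen libraries 10 immune markers summed to 64.5 to 285 CPM in the EC populations, against 35798 and 32607 CPM in macrophage-like cells, and the part of free immune RNA in the lowest S100a4 levels was not tested.

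S100a11, the annexin A1 partner, led in DC-like cells (2293 ± 617 CPM) and Lymph-Cap ECs (1494 ± 293 CPM), each apart from its neighbours, and was low in Cdh5+/Krt19+ cells (319 ± 74.1 CPM). S100a13, which is known for the non-classical release of FGF1 and IL-1α, marked blood ECs: Cap-Kdr (600 ± 68.8 CPM), Artery (590 ± 98.9 CPM) and Vein (575 ± 93.9 CPM) overlapped. Cdh5+/Krt19+ cells were the lowest of the 15 for S100a13, at 71.1 ± 25.6 CPM. S100a16, a widely expressed family member, ran from 461 ± 26.0 CPM in Lymph-Cap ECs down to 107 ± 24.6 CPM in pericyte-like cells. A gap followed, and the 4 immune populations had 6.59 to 21.1 CPM on average.

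Of the other annexins, Anxa1, the glucocorticoid-induced ligand of formyl peptide receptors, was highest in the fibroblast-like cluster (1075 ± 259 CPM) and lowest in Cap-Kdr ECs (48.7 ± 18.7 CPM), and both stood apart from the rest. Anxa3 was highest in Artery ECs (333 ± 69.2 CPM) and Cdh5+/Krt19+ cells (330 ± 49.4 CPM), which overlapped. It was low in the lymphatic populations, with 27.1 ± 5.87 CPM in Lymph-Cap and 4.53 ± 2.24 CPM in Lymph-Col ECs. Anxa5, the phosphatidylserine binder used to stain dying cells, ran from 940 ± 89.8 CPM in fibroblast-like to 343 ± 242 CPM in mast-like cells, with T-like cells (148 ± 45.6 CPM) last in the order.

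**Figure D1:**
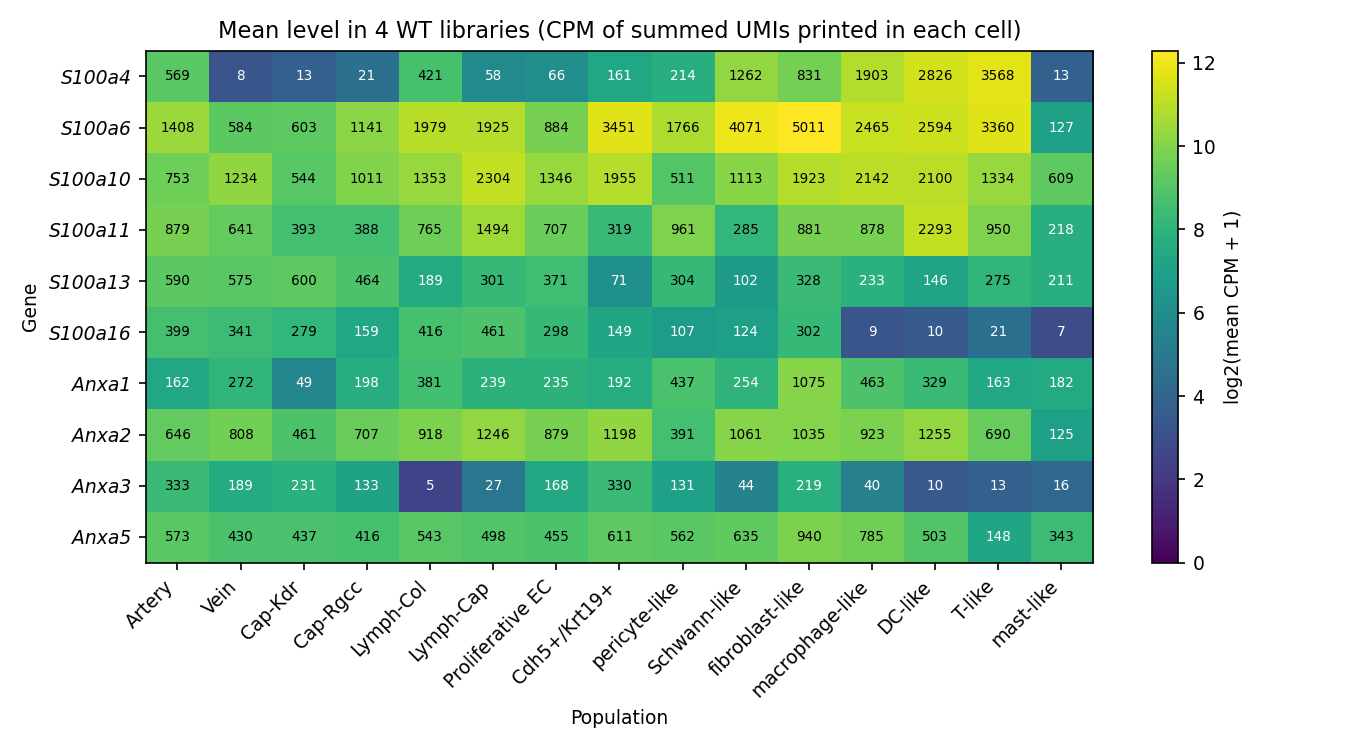
Mean level of each member (rows) in each named population (columns) of the 4 WT libraries. Numbers are CPM of summed UMIs and the colour is log2(mean CPM + 1). S100a16 is at 21 CPM or less in the 4 immune columns, S100a13 is lowest in Cdh5+/Krt19+ cells, and Anxa3 is at 5 CPM in Lymph-Col.

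The genes whose levels followed a member most closely, other members included, were sought over the 15 population means, among 6666 genes that reached 50 CPM in a population. S100a16 had the closest companions, Ldb2 (r = 0.974), Mtch1 (r = 0.965) and Lysmd2 (r = 0.958), followed by Anxa5 with Asah1 (r = 0.919) and Anxa3 with Ak3 (r = 0.912). S100a6 was most like Cop1 (r = 0.876), Anxa2 most like Eif4e2 (r = 0.873), S100a13 most like the angiotensin-converting enzyme gene Ace (r = 0.844) and S100a11 most like Uck2 (r = 0.838). S100a4 had another member, S100a6, as its nearest gene (r = 0.830), S100a10 had Tgfbi (r = 0.817) and Anxa1 had Adam9 (r = 0.818). These values describe population means from the same libraries and carry no test.

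Cdh5+/Krt19+ cells were set against blood ECs (Artery, Vein, Cap-Kdr and Cap-Rgcc summed) within each library, as a description. For S100a6 the 4 WT libraries had 3142, 2929, 3779 and 3954 CPM in Cdh5+/Krt19+ cells and 602, 589, 1386 and 1132 CPM in blood ECs (telogen 1 and 2, anagen 1 and 2). All 4 values of the first were above all 4 of the second, and the log2 ratio was 1.90 ± 0.44 (SD, n = 4). S100a10 had 2062, 2394, 1770 and 1592 CPM against 971, 997, 943 and 829 CPM, without overlap (log2 ratio 1.06 ± 0.16). Anxa2 (0.81 ± 0.14) and Anxa5 (0.40 ± 0.16) were likewise higher in Cdh5+/Krt19+ cells in 4 of 4 libraries without overlap. Anxa3 was higher in 4 of 4 libraries (0.61 ± 0.21), but its ranges overlapped.

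The opposite held for 3 S100 members. S100a13 had 51.9, 52.0, 106 and 74.4 CPM in Cdh5+/Krt19+ cells against 540, 505, 656 and 505 CPM in blood ECs, a log2 ratio of -2.96 ± 0.37. S100a16 (-1.0 ± 0.13) and S100a11 (-0.87 ± 0.23) were also lower in 4 of 4 libraries, without overlap. S100a4 (0.22 ± 0.14) and Anxa1 (0.04 ± 0.23) had overlapping ranges, and their small ratios changed sign under other clustering settings or without 1 library. The S100a10-Anxa2 pair was higher in perineurial cells while S100a11 was lower there. The Cdh5+/Krt19+ cells formed 2 clusters, led by Lypd2 and Thbs4, in which S100a6 (3828 ± 778 and 3338 ± 407 CPM, n = 4), S100a10 (2251 ± 349 and 1859 ± 349 CPM) and Anxa2 (1121 ± 68.2 and 1223 ± 117 CPM) were close to each other. Anxa1 was lower in the Lypd2 cluster (117 ± 17.2 CPM) than in the Thbs4 cluster (217 ± 47.4 CPM). Immediate-early and heat shock genes, which respond to tissue digestion among other things, summed to 3263 CPM in the first and 22211 CPM in the second in telogen replicate 1.

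**Figure D2:**
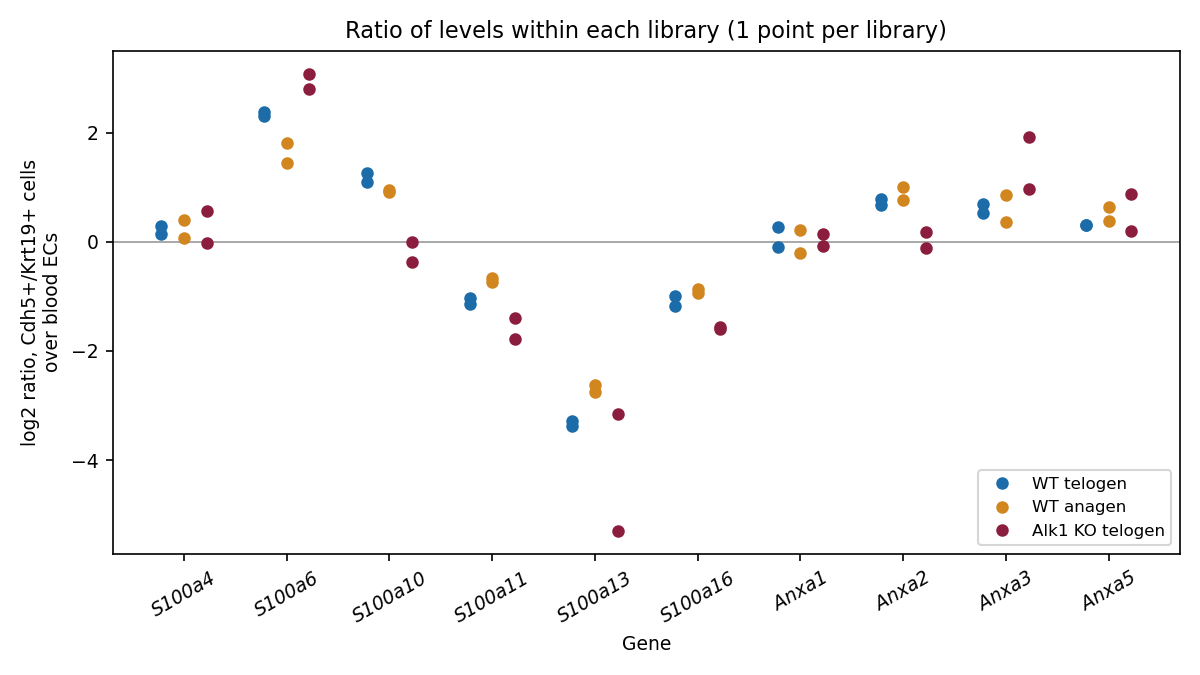
log2 ratio of the level in Cdh5+/Krt19+ cells to that in blood ECs, for each member (x axis) and each library (points, coloured by group). A value of 0 means equal levels. S100a10 and Anxa2 lie above 0 in the 4 WT libraries and at -0.37 to 0.18 in the KO libraries, while S100a13 is the lowest in every library.

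The hair cycle comparison set the anagen libraries over the telogen libraries in 10 populations. The stages also differed in age (PD 20 and PD 32) and in time since tamoxifen. The Y-linked gene Ddx3y was expressed in both anagen libraries and telogen replicate 2, and Xist in telogen replicate 1. The part of hair cycle stage cannot be told apart from these. Differences are log2 fold changes from edgeR's quasi-likelihood test, with p-values adjusted by Benjamini-Hochberg across every gene tested in the population. A gene was called where its adjusted p was below 0.05 and its change exceeded 1.3-fold. Few genes of any kind were called: 0.664% of those tested in Vein, 0.108% in Artery, 1.02% in Cap-Rgcc, 0.0892% in Cap-Kdr, 0.209% in Lymph-Cap, 1.5% in Lymph-Col, 0.591% in Cdh5+/Krt19+, 0.0463% in pericyte-like, 0.367% in fibroblast-like and 2.66% in macrophage-like cells. S100a6 in ECs was known from earlier results to be higher in anagen and is given below without a test. The other members were also chosen from earlier results across these groups. Their counts, calls and adjusted p-values between stages therefore describe a chosen set, and nothing is read from them against all genes. Of the other member and EC population pairs, 53 were tested and 2 were called. Among Cdh5+/Krt19+ cells 0 of 10 members were called (6 of 10 had an unadjusted p under 0.05, as had 1586 of all 11169 genes tested there, and DESeq2 called 1). In pericyte-like, fibroblast-like and macrophage-like cells 1 of 30 pairs was called. The median log2 fold change of the members was between -0.20 (Cap-Kdr) and 0.37 (Lymph-Col), where that of all genes was between -0.03 and 0.01.

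S100a4 rose in Lymph-Col ECs. It had 284 and 253 CPM in telogen and 661 and 484 CPM in anagen, without overlap (log2 fold change 1.24, SE 0.20, edgeR adjusted p = 0.0176). The call was lost with all 6 libraries in one fit (1.24, edgeR adjusted p = 0.0956). Its estimates were above 0 in all 10 populations, from 0.01 in fibroblast-like cells to 1.39 in Cap-Rgcc (11 and 13.8 against 30.1 and 30.5 CPM, edgeR adjusted p = 0.0632). The summed immune markers were lower in anagen in Lymph-Col (94.0 and 219 against 65.8 and 17.5 CPM), and their part was not tested.

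Anxa1 rose in Vein ECs, where it had 201 and 214 CPM in telogen and 338 and 335 CPM in anagen, without overlap (log2 fold change 0.82, SE 0.14, edgeR adjusted p = 0.0268). The call was lost without telogen replicate 1 (0.80) or 2 (0.87), with all 6 libraries in one fit (0.85), under the stricter cell filter (0.67) and under a scaling by total counts (0.69), under which the median of all genes moved by -0.13. In Cap-Kdr the estimate for Anxa1 was -0.81 and in Cap-Rgcc 0.82, neither called. S100a11 rose in macrophage-like cells, with 726 and 679 CPM in telogen and 962 and 1146 CPM in anagen (0.82, SE 0.15, edgeR adjusted p = 0.0490). That call was lost without telogen replicate 1 (0.89) or 2 (0.75), with all 6 libraries in one fit (0.85), under the stricter cell filter (0.61) and under a scaling by total counts (0.58), where the median moved by -0.28. In the same cells endothelial markers summed to 60.3 and 54.4 CPM in telogen and 184 and 392 CPM in anagen (6 of 8 called higher), and fibroblast markers to 99.0 and 164 CPM against 31.2 and 29.5 CPM (2 of 5 tested called lower), and their part was not tested. The macrophage-like class held 2 clusters, and the one led by Lyz1 had more S100a11 (1099 ± 12.5 CPM in telogen, n = 2) than the one led by C1qa (281 ± 18.7 CPM). The Lyz1 cluster held 298 and 673 cells in telogen and 127 and 32 in anagen, the C1qa cluster 248 and 635 against 83 and 9. Such a shift in the mix moves the sum, and its part in the S100a11 difference was not tested.

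S100a6 had higher anagen than telogen values in every EC population, without overlap in any of the 6. Artery went from 1034 and 963 CPM to 2063 and 1573 CPM, Vein from 346 and 411 CPM to 898 and 680 CPM, and Cap-Rgcc from 728 and 604 CPM to 1828 and 1406 CPM. Its EC estimates lay between 0.52 (Lymph-Cap) and 1.38 (Cap-Rgcc), and in Cdh5+/Krt19+ cells the estimate was 0.43 (edgeR adjusted p = 0.132). The cells of the Lrat-led EC cluster, which met no marker rule, had 823 ± 135 CPM in telogen and 1838 ± 91.8 CPM in anagen (n = 2 each). Ribosomal protein genes, which moved the same way, had median log2 fold changes of 0.03 to 0.51 over the 10 populations, and their part in the S100a6 difference was not tested.

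The other members had 0 calls each between stages (edgeR). S100a10 estimates were -0.47 to 0.18, Anxa5 -0.29 to 0.01 and Anxa2 -0.28 to 0.43. Those of S100a13 were 0.03 to 0.86, of S100a16 -0.33 to 1.10 and of Anxa3 -0.78 to 0.38. On simulated data edgeR recovered 1.49% (Cap-Kdr) to 11.9% (Cdh5+/Krt19+) of 1.5-fold stage changes, so a missing call does not show that a gene stayed level. S100a13 in Cdh5+/Krt19+ cells had 51.9 and 52.0 CPM in telogen and 106 and 74.4 CPM in anagen, without overlap, but was not called (0.86, edgeR adjusted p = 0.10). Endothelial markers, detected 8 of 8 in each of these libraries, summed to 160 and 187 CPM in the telogen and 387 and 364 CPM in the anagen Cdh5+/Krt19+ cells (3 of 8 called higher, median log2 fold change 1.40), S100a13 had 464 (Cap-Rgcc) to 600 CPM (Cap-Kdr) in WT blood ECs, and the part of either was not tested. Anxa3 in Lymph-Col was too low to test, with 2.68 to 7.62 CPM. Whether Cdh5+/Krt19+ cells and blood ECs differed in their stage response was tested as an interaction within libraries, which called 0.525% of all genes and 0 of the 9 members other than S100a6 (1 of 9 had an unadjusted p under 0.05, as had 1068 of all 12199 genes tested, and DESeq2 called 0 of 9). S100a6, whose stage difference in ECs was known, had an estimate of -0.79 in this comparison, given with no test.

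**Figure D3:**
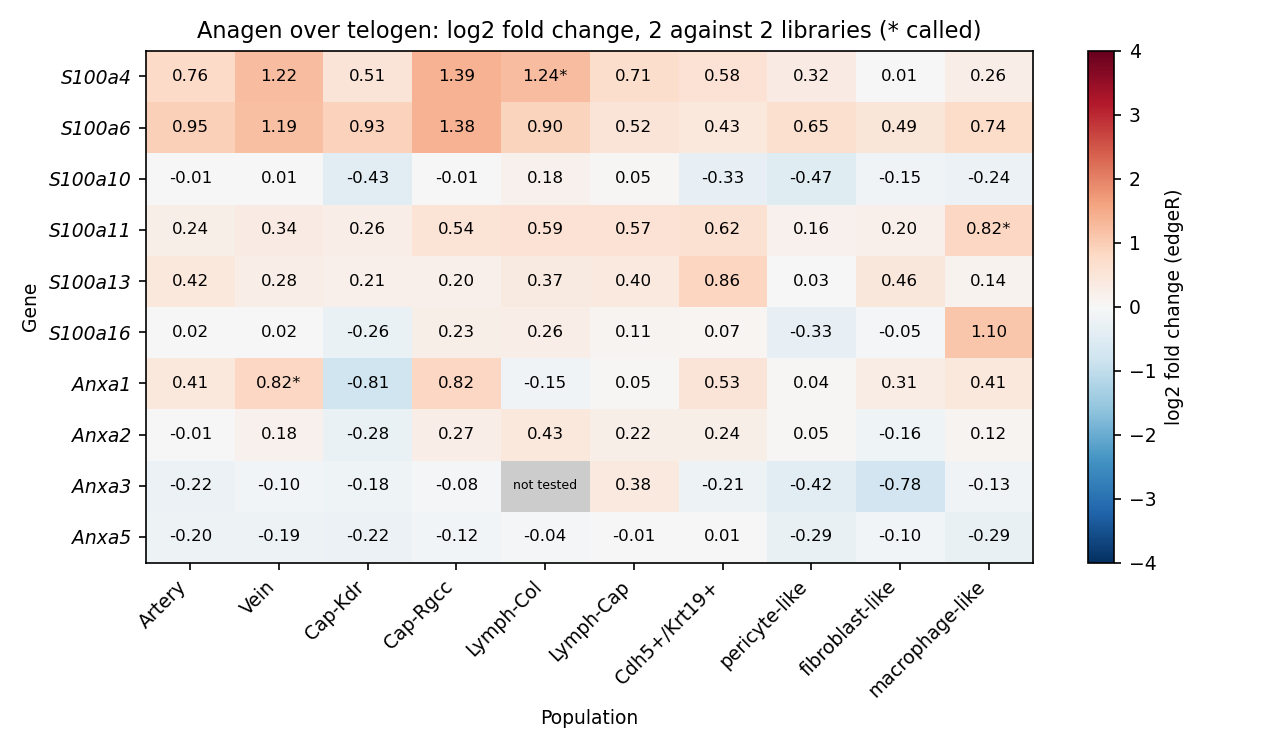
log2 fold change of anagen over telogen (2 against 2 libraries) for each member (rows) and population (columns). A star marks a call (edgeR adjusted p under 0.05 and fold over 1.3), grey a pair too low to test, and S100a6 in ECs is shown without calls. Stars stand at S100a4 in Lymph-Col, Anxa1 in Vein and S100a11 in macrophage-like cells, and the S100a4, S100a6, S100a11 and S100a13 rows lie above 0 throughout.

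Of the wider families and partners, 13 pairs of another S100 gene and a population, 41 pairs of another annexin and 96 pairs of a partner gene were tested between stages, and 1 was called. Anxa6, an annexin with a doubled core that scaffolds signalling at the membrane, fell by 1.18 on the log2 scale in macrophage-like cells (SE 0.17, edgeR adjusted p = 0.0373), a call lost without telogen replicate 1 (-1.18) or 2 (-1.16) and under the stricter cell filter (-1.01).

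The KO comparison set the 2 Alk1 KO libraries over the 2 WT telogen libraries, which are also the telogen side of the hair cycle comparison. KO and WT mice differed in strain, age and the Krt14-H2BGFP allele as well, so the part of Alk1 cannot be told apart from these. Xist was expressed in telogen replicate 1 and both KO libraries, while the Y-linked gene Ddx3y was expressed in the other 3 libraries, so sex also moved with the groups. Reads of Acvrl1, the Alk1 gene, had 169 and 164 CPM in KO blood ECs and 190 and 166 CPM in telogen, and a 3′ tag need not lie in the deleted part and does not check the deletion. Cdh5+/Krt19+ cells were few in the KO (80 and 56 cells, against 545 and 852).

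Other gene groups moved with the KO too. Nuclear oxidative phosphorylation genes had median log2 fold changes of -1.37 (fibroblast-like) to -0.17 (Lymph-Col), and immune markers in the EC populations summed to 64.5 to 285 CPM in telogen and 4.36 to 28.4 CPM in the KO. Summed fibroblast collagens and related markers were 84692 and 73330 CPM in the telogen fibroblast-like cluster and 5516 and 4954 CPM in its KO cells, which therefore largely lack the markers of that name, while immediate-early and heat shock genes there were at 7015 and 6581 CPM in telogen and 21866 and 21007 CPM in the KO. Endothelial markers were also lower in cells other than ECs. In pericyte-like cells they summed to 2561 and 2057 CPM in telogen and 603 and 1610 CPM in the KO (4 of 8 called lower, median log2 fold change -1.66), and in Cdh5+/Krt19+ cells to 160 and 187 CPM against 31.7 and 64.5 CPM (3 of 6 tested called lower, median -2.54). Keratinocyte markers reached 538 CPM in the Cdh5+/Krt19+ cells of KO replicate 2, against 30.8 to 45.8 CPM in the other 5 libraries. The part of these in the results below was not tested.

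The members were chosen from earlier results across these groups, KO libraries included. Their counts, calls and adjusted p-values in the KO therefore describe a chosen set, and nothing is read from them against all genes. Of 96 pairs of a member and a population tested, 51 fell and 7 rose. The calls numbered 6 of 10 members in Artery (17.7% of all genes tested there were called), 5 of 9 in Vein (22.5%), 6 of 9 in Cap-Kdr (32.6%), 5 of 9 in Cap-Rgcc (19.9%), 7 of 9 in Lymph-Col (18.3%), 7 of 10 in Lymph-Cap (14.6%) and 7 of 10 in Cdh5+/Krt19+ cells (21.6%). They were 5 of 10 in pericyte-like (6.69%), 9 of 10 in fibroblast-like (38.3%) and 1 of 10 in macrophage-like cells (11.8%). Of all genes called in Artery, 760 were lower and 614 higher, and of those in Lymph-Cap 791 were lower and 577 higher. The median log2 fold change of the members was -0.22 (Cap-Rgcc) to -1.36 (fibroblast-like), and in Cdh5+/Krt19+ cells -1.14, where that of all genes was -0.11 to 0.02. A scaling by total counts moved the median of all genes by 0.19 in Cap-Kdr, 0.30 in fibroblast-like and -0.19 in macrophage-like cells. Clustered with no correction between libraries, KO Cap-Rgcc held 2 and 1 cells in place of 113 and 103, too few to test. KO Cap-Kdr then held 37 and 29 cells in place of 140 and 150, and KO Vein 50 and 32 in place of 150 and 121. In that setting the EC populations without Cap-Rgcc had 3 calls higher and 24 lower. With the correction all 6 EC populations had 5 and 31, and 5 of these calls were in Cap-Rgcc. Without telogen replicate 1 or 2 the EC populations had 28 or 27 calls in place of 36, and pericyte-like, fibroblast-like and macrophage-like cells had 10 or 8 in place of 15.

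**Figure D4:**
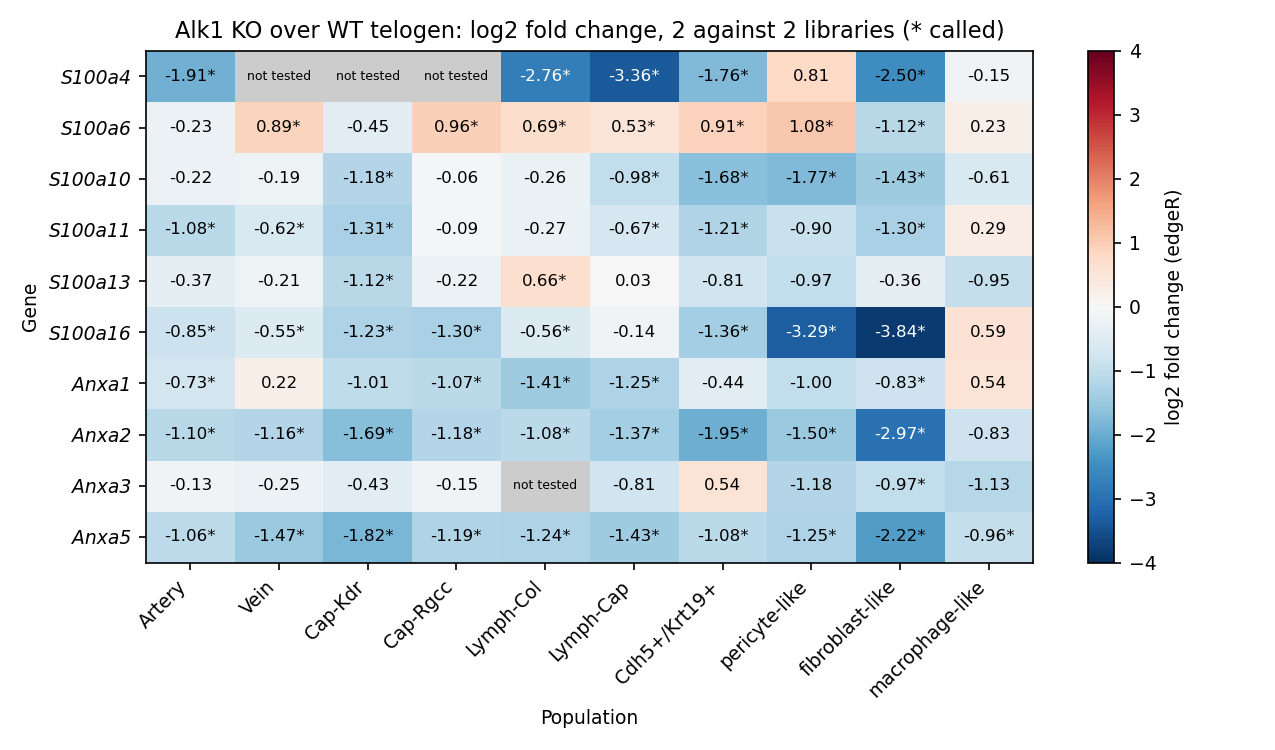
log2 fold change of Alk1 KO over WT telogen (2 against 2 libraries) for each member (rows) and population (columns). A star marks a call (edgeR adjusted p under 0.05 and fold over 1.3) and grey a pair too low to test. The Anxa5 row is starred in all 10 columns and the Anxa2 row in 9, all below 0, while the S100a6 row has 6 stars above 0 and 1 below.

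Anxa2 and its partner S100a10 differed in how widely they fell. In Cdh5+/Krt19+ cells Anxa2 had 1135 and 1127 CPM in telogen and 330 and 296 CPM in the KO (log2 fold change -1.95, SE 0.22, edgeR adjusted p = 7.07e-05). In Lymph-Cap ECs it had 1154 and 1225 CPM against 474 and 482 CPM, and in Artery 683 and 650 CPM against 315 and 310 CPM. The groups did not overlap in these, and Anxa2 fell in all 6 EC populations by 1.08 to 1.69 on the log2 scale. It also fell in pericyte-like cells (-1.50) and in the fibroblast-like cluster (-2.97), and in macrophage-like cells the estimate was -0.83 (edgeR adjusted p = 0.0970). The pericyte-like call was lost without telogen replicate 1 (-1.53) or 2 (-1.58).

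S100a10 in Cdh5+/Krt19+ cells had 2062 and 2394 CPM in telogen and 685 and 822 CPM in the KO (log2 fold change -1.68, SE 0.21, edgeR adjusted p = 1.76e-04). It fell in Lymph-Cap ECs too, where telogen had 2365 and 2301 CPM and the KO 1220 and 1229 CPM (-0.98, SE 0.13, edgeR adjusted p = 5.36e-04), in Cap-Kdr (-1.18), in pericyte-like cells (-1.77) and in the fibroblast-like cluster (-1.43). In Artery (815 and 742 against 700 and 647 CPM), Vein (1295 and 1270 against 1051 and 1213 CPM), Cap-Rgcc and Lymph-Col it was not called, with estimates of -0.26 to -0.06. AHNAK, the scaffold of the complex, went the other way: Ahnak rose in Artery (0.88), Vein (1.19), Cap-Kdr (1.21), Lymph-Col (1.73), Lymph-Cap (1.18) and Cdh5+/Krt19+ cells (0.65). The last call was lost without telogen replicate 1 (0.60) or 2 (0.65) and with no filter on low counts (0.52). It was also lost with the replicate block (0.65), under the stricter cell filter (0.59) and with likely doublets removed (0.69).

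**Figure D5:**
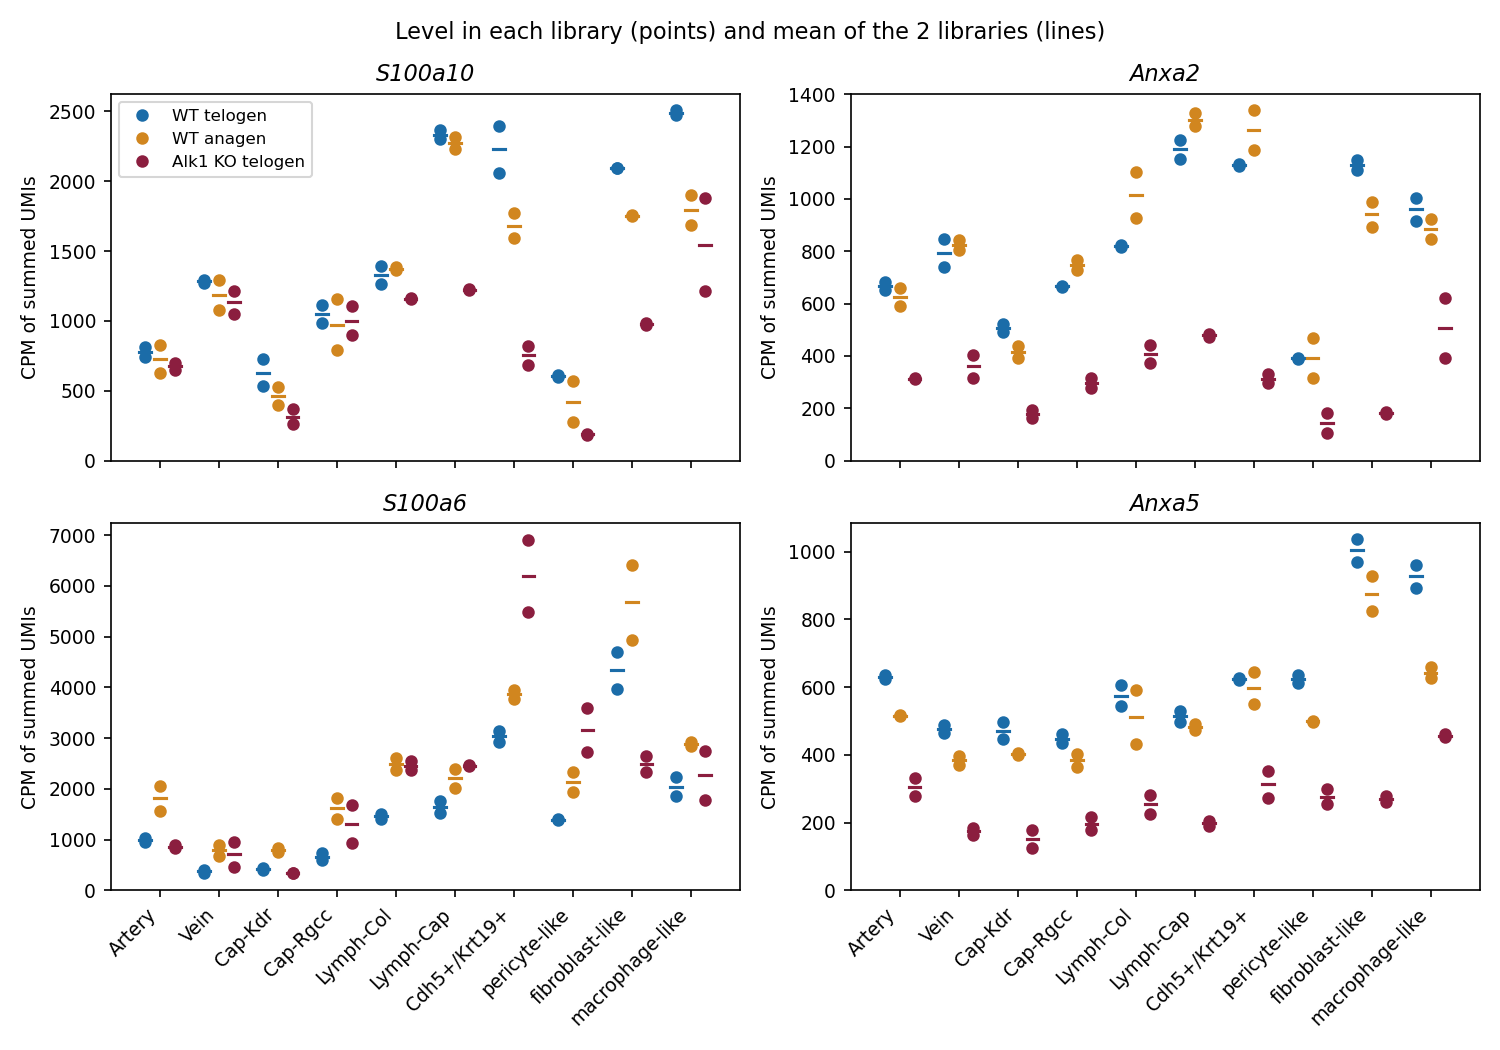
CPM of S100a10, Anxa2, S100a6 and Anxa5 in each library (points, linear axes from 0) for 10 populations, with lines at the mean of the 2 libraries of a group. KO points of Anxa2 and Anxa5 lie below both telogen points in every population, those of S100a10 in Cdh5+/Krt19+ cells are at 685 and 822 CPM, and those of S100a6 there at 5480 and 6907 CPM.

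Anxa5 fell in all 10 populations. In Vein it had 487 and 466 CPM in telogen and 165 and 183 CPM in the KO (log2 fold change -1.47, SE 0.17, edgeR adjusted p = 8.28e-05), and in Cap-Kdr 446 and 496 CPM against 125 and 179 CPM (-1.82, SE 0.22, edgeR adjusted p = 2.14e-04). In Cdh5+/Krt19+ cells it had 621 and 628 CPM against 352 and 274 CPM (-1.08, SE 0.22, edgeR adjusted p = 0.00409). The groups did not overlap in any of the 3, and the smallest fall was in macrophage-like cells (-0.96). The macrophage-like call was lost without telogen replicate 1 (-0.87) or 2 (-0.99), and so was the pericyte-like call (-1.26 or -1.35).

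Anxa1 fell in Artery, Cap-Rgcc, both lymphatic populations and the fibroblast-like cluster. In Lymph-Col it had 449 and 391 CPM in telogen and 141 and 190 CPM in the KO, without overlap (-1.41, SE 0.17, edgeR adjusted p = 1.47e-04). In Vein it had 201 and 214 CPM against 165 and 328 CPM, which overlapped (0.22, edgeR adjusted p = 0.563). The Artery call (-0.73) was lost without telogen replicate 2 (-0.55) or KO replicate 1 (-0.46), the Cap-Rgcc call (-1.07) without telogen replicate 2 (-0.95) or KO replicate 1 (-0.68), and the fibroblast-like call (-0.83) without telogen replicate 1 (-0.92) or 2 (-0.83) and under a scaling by total counts (-0.48). Its partner S100a11 fell in Artery (850 and 814 against 440 and 352 CPM, -1.08), Vein (-0.62), Cap-Kdr (-1.31), Lymph-Cap (-0.67), Cdh5+/Krt19+ cells (258 and 262 against 139 and 91.4 CPM, -1.21) and the fibroblast-like cluster (-1.30). Its Vein call was lost without telogen replicate 1 (-0.53) or 2 (-0.71), and its Lymph-Cap call without telogen replicate 1 (-0.59).

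S100a4 fell where it was high among ECs. Artery had 499 and 379 CPM in telogen and 119 and 115 CPM in the KO (-1.91, SE 0.19, edgeR adjusted p = 1.70e-05), Lymph-Col 284 and 253 CPM against 66.1 and 17.9 CPM (-2.76, SE 0.35, edgeR adjusted p = 2.25e-04), and Lymph-Cap 53.5 and 39.1 CPM against 6.20 and 3.30 CPM (-3.36). In Cdh5+/Krt19+ cells it had 158 and 109 CPM against 44.4 and 37.6 CPM (-1.76, SE 0.33, edgeR adjusted p = 0.00212). None of these overlapped. Vein had 12 UMIs in telogen and 0 in the KO, at least 3.67-fold lower against a floor of 3 UMIs over the group, Cap-Kdr had 13 and 0 UMIs (at least 2.71-fold lower), and Cap-Rgcc 17 and 1 UMIs (ratio 16.7, 95% counting interval 2.61 to 697). The intervals cover counting error alone. In macrophage-like cells the estimate was -0.15 and in pericyte-like cells 0.81 (207 and 185 against 366 and 367 CPM, edgeR adjusted p = 0.0813). Immune markers were lower in the KO EC populations as well, and macrophage-like cells hold far more S100a4 than these ECs; their part was not tested.

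S100a16 fell in 8 of 10 populations. Artery had 436 and 379 CPM in telogen and 222 and 235 CPM in the KO (-0.85), Cdh5+/Krt19+ cells 136 and 162 CPM against 60.2 and 64.5 CPM (-1.36), and pericyte-like cells 136 and 109 CPM against 12.4 and 13.9 CPM (-3.29, SE 0.41, edgeR adjusted p = 0.00849). None overlapped. Endothelial markers were lower in the KO in the latter 2 populations too, S100a16 is high in ECs (399 CPM in WT Artery), and their part was not tested. Lymph-Cap, its highest population, was an exception with 430 and 487 CPM against 471 and 389 CPM (-0.14, edgeR adjusted p = 0.623). The calls in Vein (-0.55), Cap-Rgcc (-1.30) and Lymph-Col (-0.56) were each lost without 1 library: Vein without telogen replicate 1 (-0.66) or 2 (-0.44) or KO replicate 1 (-0.47), Cap-Rgcc without telogen replicate 2 (-1.09), and Lymph-Col without telogen replicate 1 (-0.47) or KO replicate 2 (-0.44).

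S100a6 rose where most members fell. In Cdh5+/Krt19+ cells it had 3142 and 2929 CPM in telogen and 5480 and 6907 CPM in the KO, without overlap (0.91, SE 0.21, edgeR adjusted p = 0.00767). Lymph-Col had 1506 and 1417 CPM against 2370 and 2550 CPM (0.69, SE 0.12, edgeR adjusted p = 0.00151). It also rose in Vein (0.89), Cap-Rgcc (0.96), Lymph-Cap (0.53) and pericyte-like cells (1.08), and fell in the fibroblast-like cluster (3976 and 4704 against 2649 and 2342 CPM, -1.12). In Artery (-0.23) and Cap-Kdr (-0.45) it was not called. Without telogen replicate 1 or 2 the calls were lost in Cdh5+/Krt19+ cells (0.93 or 0.85), Vein (0.79 or 0.99), Cap-Rgcc (1.09 or 0.82), Lymph-Cap (0.65 or 0.41) and pericyte-like cells (1.05 or 1.01). The Vein call was also lost without KO replicate 2 (0.33), and the fibroblast-like call without telogen replicate 2 (-1.06). The call in Lymph-Col held without each library. Cacybp, which encodes the calcyclin-binding protein, fell in Artery (-1.38), Vein (-0.97), Cap-Kdr (-1.16), Lymph-Col (-0.82), Lymph-Cap (-1.06), the fibroblast-like cluster (-1.28) and macrophage-like cells (-1.0). The Cacybp calls in Vein (-0.81 or -1.11) and macrophage-like cells (-0.96 or -1.05) were lost without telogen replicate 1 or 2, and that in Lymph-Cap without telogen replicate 1 (-0.90). With DESeq2 the Cacybp calls in Vein (-0.94), Cap-Kdr (-1.16) and the fibroblast-like cluster (-1.31) were lost.

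S100a13 and Anxa3 had the fewest calls. S100a13 rose in Lymph-Col (174 and 173 against 262 and 313 CPM, 0.66, SE 0.15, edgeR adjusted p = 0.00944), a call lost without telogen replicate 1 (0.66) or 2 (0.65). It fell in Cap-Kdr (555 and 561 against 330 and 252 CPM, -1.12, SE 0.20, edgeR adjusted p = 0.00194), where erythroid genes stood at 20782 CPM in telogen replicate 1 and 13720 CPM in KO replicate 2 and their part was not tested. Anxa3 was called in the fibroblast-like cluster alone (-0.97, without telogen replicate 2 -0.75 and not called, under a scaling by total counts -0.63 and not called). Anxa3 in Cdh5+/Krt19+ cells had 340 and 386 CPM in telogen and 571 and 564 CPM in the KO, which did not overlap but missed the call (0.54, SE 0.20, edgeR adjusted p = 0.0715). Anxa3 in Lymph-Col had 11 and 2 UMIs (ratio 4.29, 95% counting interval 0.935 to 39.8).

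The difference between Cdh5+/Krt19+ cells and blood ECs in their KO response was tested as an interaction within libraries, which called 6.09% of all genes tested and 3 of 10 members. S100a10 fell more in Cdh5+/Krt19+ cells than in blood ECs, in which it had 971 and 997 CPM in telogen and 886 and 825 CPM in the KO (difference -1.43, SE 0.19, edgeR adjusted p = 1.02e-06). That call held without each library and with DESeq2. Anxa2 fell in both, with 709 and 652 CPM in telogen and 290 and 320 CPM in the KO for blood ECs, and more so in Cdh5+/Krt19+ cells (-0.74, SE 0.21, edgeR adjusted p = 0.0241), but this was lost without telogen replicate 1 (-1.05) or 2 (-0.68). Anxa3 differed in the other direction (0.80, SE 0.23, edgeR adjusted p = 0.0250), and was lost without telogen replicate 1 (0.63) or 2 (0.72) and without KO replicate 1 (0.01). The log2 ratio of S100a10 between the cell kinds, 1.09 and 1.26 in telogen, was -0.37 and -0.00 in the KO. For S100a6 the difference was 0.52 (edgeR adjusted p = 0.0716) and for Anxa5 0.23 (edgeR adjusted p = 0.660).

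Among the wider lists in the KO, 3 of 13 tested pairs of another S100 gene and a population fell and 0 rose, 6 of 41 pairs of another annexin fell and 2 rose, and 21 of 91 pairs of a partner gene fell and 9 rose, where 6.69% to 38.3% of all genes were called in the single populations. S100a1, best known from muscle, fell in both capillary populations (Cap-Kdr -1.55 and Cap-Rgcc -0.79, the latter lost without telogen replicate 1 (-0.57) or 2 (-0.99) or KO replicate 2 (-0.58)). S100b, the glial S100 gene, had 82 UMIs in the telogen fibroblast-like cluster and 0 in its KO cells, at least 3.97-fold lower against a floor of 3 UMIs over the group. Anxa6 fell in Cdh5+/Krt19+ (-1.48), pericyte-like (-1.76), fibroblast-like (-1.73) and macrophage-like cells (-1.64), and the pericyte-like call was lost without telogen replicate 1 (-1.75), with DESeq2 (-1.75), with the replicate block (-1.77), under the stricter cell filter (-1.41) and with likely doublets removed (-1.47). Anxa8 rose in Lymph-Col (2.52, SE 0.27, edgeR adjusted p = 6.01e-05) and Anxa11 in Lymph-Cap (0.62), the latter lost without telogen replicate 1 (0.62) or 2 (0.62), with DESeq2 (0.62), with all 6 libraries in one fit (0.63) and under the stricter cell filter (0.55).

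Anxa4 had 350 UMIs in telogen Cdh5+/Krt19+ cells and 2 in the KO (ratio 10.0 per UMI sequenced, 95% counting interval 2.75 to 82.9), fell in Cap-Kdr (-1.66), and Fgf1, the growth factor released with S100A13, had 365 and 2 UMIs in Cdh5+/Krt19+ cells (ratio 10.4, 2.87 to 86.4) and 64 and 0 in the fibroblast-like cluster (at least 3.10-fold lower). Dysf, which encodes the membrane repair protein dysferlin, fell in Cap-Kdr (-2.18), Cap-Rgcc (-0.75) and Lymph-Cap (-1.55). Of the myosin partners of S100A4, Myh9 fell in Artery (-0.70), Vein (-0.60) and Lymph-Cap (-0.58), while Myh10 rose in Cap-Kdr (2.41) and fell in Lymph-Col (-0.96). The remaining calls were Hltf higher in Cap-Kdr and Lymph-Col, Pdcd6 lower in Cap-Rgcc and fibroblast-like, Sugt1 lower in fibroblast-like and macrophage-like, and Pla2g4a with 116 and 3 UMIs in fibroblast-like cells (ratio 5.62, 1.87 to 27.6). Both Sugt1 calls were lost with DESeq2 (-0.76 and -0.74). So were Hltf in Lymph-Col (0.92), Pdcd6 in Cap-Rgcc (-0.89), Pla2g4a (-2.67), Anxa4 in Cap-Kdr (-1.67) and Myh10 in Lymph-Col (-0.97). Of 44 calls on these lists in both comparisons, 18 were lost with DESeq2. Sugt1 was also lost without telogen replicate 1 (-0.76 and -0.90) or 2 (-0.89 and -0.61), and Pdcd6 in Cap-Rgcc likewise (-0.90 each). Anxa4 in Cap-Kdr was lost without telogen replicate 2 (-1.53). Hltf in Lymph-Col (0.81), Myh10 in Lymph-Col (-0.94) and Pdcd6 in fibroblast-like cells (-1.08) were lost without telogen replicate 1. Without telogen replicate 1, 19 of 42 calls on these lists in both comparisons were lost, and without telogen replicate 2, 17 of 41. Every Myh9 call was among those lost without a telogen library (-0.43 in Artery and -0.46 in Vein without telogen replicate 2, -0.72 in Lymph-Cap without telogen replicate 1), as were the Dysf calls in Cap-Rgcc (-0.67 or -0.84 without telogen replicate 1 or 2) and Lymph-Cap (-1.93 or -1.11), while the Dysf call in Cap-Kdr held without each library.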

How the data were processed

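Live tdTomato+ cells of digested dorsal skin were profiled on the Chromium 3′ v3 platform, 1 library a mouse. Per the submitters' processing notes, the authors used Cell Ranger 6.0.1 and Seurat 4.0 with mm10, and the deposited matrices hold raw UMI counts per gene and barcode, in which every barcode has at least 500 UMIs. The members and lists were chosen with earlier results of these data known. Cells with 200 to 5000 genes and under 10% mitochondrial UMIs were kept. Clustering used scanpy 1.11.5 with 3000 variable genes (42 member and related genes left out), 30 principal components, a Harmony correction between libraries, 20 neighbours and Leiden resolution 0.6. A cluster was named from at least 3 markers with a fold over 2 and present in over 25% of its cells. Doublets were kept in the values reported, and removing the top 5% by doublet score was an alternative. UMIs were summed per library and population (at least 5 cells) and tested with edgeR 4.0.16 in R 4.3.3, with TMM scaling, glmQLFit and glmQLFTest over all genes passing the filter on low counts. All members were described by rule, and of the other lists the genes called were named. The interaction between Cdh5+/Krt19+ cells and blood ECs had the library as a block. Alternatives were DESeq2 1.42.0, its size factors, no filter, all 6 libraries in one fit, a stricter cell filter (500 genes, 5% mitochondrial), other clusterings, and each library left out. A scaling by total counts and leaving out the fibroblast-like cells were chosen after seeing the data. On simulated data, edgeR recovered 8.96% (pericyte-like, 8614 genes) to 61.2% (Vein, 9282 genes) of 2-fold stage changes and 5.97% (pericyte-like, 7893 genes) to 58.2% (Lymph-Col, 9504 genes) of 2-fold KO changes. Nothing but the mouse separates libraries of a group, so p-values rest on 2 mice a group.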

Additional observations from a re-analysis of the deposited data

Results flagged for a closer look

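These results were called as different in response between Cdh5+/Krt19+ cells and blood ECs, by an interaction test within libraries (edgeR). In the KO comparison the difference was -1.43 on the log2 scale for S100a10, -0.74 for Anxa2, 0.80 for Anxa3 and -3.56 for Anxa4, the last with 2 UMIs in the KO Cdh5+/Krt19+ cells. The Anxa2 call was lost with DESeq2 (-0.75) and without telogen replicate 1 (-1.05) or 2 (-0.68). The Anxa3 call was lost with DESeq2 (0.77), with likely doublets removed (0.61), and without telogen replicate 1 (0.63) or 2 (0.72) or KO replicate 1 (0.01). In the hair cycle comparison the difference was 3.17 for Dysf, which had 3 and 2 UMIs in telogen and 15 and 8 in anagen Cdh5+/Krt19+ cells. The Dysf call was lost without telogen replicate 1 (3.61) or 2 (2.78) or anagen replicate 1 (2.62), with likely doublets removed (4.46), under the stricter cell filter (6.10) and under a scaling by total counts (3.24). Dysf is higher in ECs (176 ± 20.8 CPM in WT Cap-Kdr, n = 4) than in WT Cdh5+/Krt19+ cells (2.79 ± 3.38 CPM), and endothelial markers differed in the same direction (3 of 8 called, median 1.24); their part was not tested.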

How the results depend on the processing

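Of 64 called member results, 6 lost the call with DESeq2, 6 under the stricter cell filter and 4 under a scaling by total counts. More of them lost it with a telogen library left out, as given above. None of the 64 changed direction in these refits, but single results were not followed under the other clusterings. Calls over all genes moved with the setting too. In Artery 10 of 9291 genes tested became 310 of 17066 with no filter on low counts and 42 of 9291 with DESeq2. In Lymph-Col 142 of 9497 became 643 of 17618 and 191 of 9497. The member counts below are therefore not read as a result about the members. The number of members called between stages in the EC populations, 2, was 8 with no filter on low counts, 5 with DESeq2, 0 with all 6 libraries in one fit, 1 with no correction between libraries, 1 under a scaling by total counts and 1 to 9 with 1 library left out. In Cdh5+/Krt19+ cells the 0 became 5 with no filter, 1 with DESeq2, 1 with no correction and 0 to 4 with 1 library left out. In pericyte-like, fibroblast-like and macrophage-like cells the 1 became 3 with no filter, 2 with DESeq2, 2 with doublets removed, 0 with all 6 libraries, the stricter filter, no correction, Leiden resolution 1.2, variable genes without exclusions or a scaling by total counts, and 0 to 4 with 1 library left out. In the KO the EC count of 36 was 27 to 38 and the Cdh5+/Krt19+ count of 7 was 6 to 9 with 1 library left out, while the 15 in the other 3 populations were 8 to 23, and 6 with the fibroblast-like cells left out. The difference of responses between stages called 0 of the 9 members other than S100a6, also with no filter and with DESeq2. In the KO it called 3 of 10 members, and 1 with DESeq2. The log2 ratio of S100a4 between Cdh5+/Krt19+ cells and blood ECs reversed to -0.48 with no correction and -0.94 with variable genes without exclusions, and that of Anxa1 to -0.03 with variable genes without exclusions, -0.02 without telogen replicate 1 and -0.03 without anagen replicate 1 (-0.03 to 0.14 with 1 library left out). The cause was not tested.

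Same-numbered libraries did not deviate together (r of -0.15 to 0.16 over 20 checks), so the numbers do not pair them. With the replicate number as a block, 2 of 61 member calls were lost, and the stage counts were 4 in the EC populations, 4 in Cdh5+/Krt19+ cells and 3 in the other 3 populations. In simulated data edgeR recovered 0% (Cdh5+/Krt19+, 10268 genes) to 16.4% (Lymph-Col, 9504 genes) of 1.5-fold KO changes, so most changes of that size would be missed at this depth.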

Other observations

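Neutrophil-like cells, among the WT libraries present with at least 5 cells in the 2 telogen libraries, had S100a6 at 4382 to 10379 CPM, S100a11 at 5576 to 8341 CPM, S100a8 at 31502 to 58988 CPM and S100a9 at 60350 to 121146 CPM. The 1 KO library with enough of these cells had S100a6 at 1525 CPM and S100a11 at 2451 CPM. The unnamed EC cluster led by Plscr1, with 5 Cap-Rgcc and 5 Artery markers, counts S100a4 among its leading genes. In it S100a4 was at 1474 ± 95 CPM in telogen, 1399 ± 165 CPM in anagen and 294 ± 231 CPM in the KO (SD, n = 2 each). In the same cluster S100a6 was at 1000 CPM in telogen, 2024 CPM in anagen and 763 CPM in the KO on average.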
